A study of Mus musculus with 14 samples.

Results

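Peaks of open chromatin at 10 genes of the Rac and Cdc42 axis were followed through ATAC-seq, an assay in which the transposase Tn5 cuts accessible DNA, in long-term blood stem cells of the mouse (LT-HSCs). The genes were Cdc42, Rac1, Rac2, Baiap2, Iqgap1, Iqgap2, Pak1, Pak2, Wasf2 and Cdc42ep3. A peak was counted to a gene when that gene's annotated span was the nearest protein-coding one and lay within 50 kb, or when the peak lay within 1 kb of its ends. This gave 79 of the 57289 consensus peaks, each 700 bp long. All cells came from bone marrow of C57BL/6 mice and were sorted as negative for lineage markers, CD34 and Flt3 and positive for Sca1 and cKit. The 3 groups were aged cells given the RhoA inhibitor Rhosin (aged Ri, over 80 weeks, 100 µM, n = 5), untreated aged cells (over 80 weeks, n = 5) and untreated young cells (10 to 16 weeks, n = 4). Cells of every group, controls included, spent 16 h in culture in HBSS with serum at 37 °C and 3% oxygen before lysis. The series text calls the replicates biological, and how many animals each library holds is not stated, so p-values measure the spread between these libraries.

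Rac and Cdc42 are small GTPases that switch between an active state with GTP and an inactive one with GDP. Active Rac drives broad membrane ruffles through the WAVE complex and the Arp2/3 actin nucleator, and active Cdc42 drives thin protrusions and sets cell polarity. RhoA, the target of Rhosin, is a related switch and promotes contraction through ROCK. In mouse blood stem cells Rac1 and Rac2 are known for their part in homing and retention in marrow, and Cdc42 activity for its rise with age.

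The libraries held 765533 (young 3) to 3176246 (aged Ri 3) counts and were sequenced in 3 batches, each with all 3 groups. Values below are CPM, a library's counts scaled to 1e6 of its normalised total. Peaks at gene ends took on average 42.5 ± 4.55% of counts in aged Ri, 42.6 ± 4.40% in aged and 48.7 ± 1.94% in young libraries (SD). All 8 stem cell marker genes examined, among them Kit, Procr and Mecom, had an accessible gene end, as did Cd34 and Flt3, whose proteins the sort gated out, while Cd3e, Cd3g, Elane, S100a8, Epor, Hba-a1, Cdh5, Cxcl12 and Lepr had none. Of the B and T cell markers, Cd79a and Rag1 had a gene-end peak, and their summed accessibility ran from 4.14 to 28.2 CPM in aged Ri and from 4.70 to 32.5 CPM in aged libraries, against 10.4 to 127.7 CPM in young ones. Young 1 with 127.7 CPM and young 3 with 73.7 CPM stood above all others on that sum. The 4 megakaryocyte markers, all with a gene-end peak, summed to 262.2 to 340.3 CPM in aged Ri, 267.5 to 453.6 CPM in aged and 123.0 to 262.0 CPM in young libraries. For the 10 genes, counts of calls that use the young libraries are therefore also given without young 1 and young 3. For other genes of the pathway they are given with all young libraries only.

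RefSeq (GRCm38.p6) promoter entries were found for 7 of the 10 genes, none of them for Rac1, Rac2 or Pak2. The 250 bases before the annotated start are printed for 4 genes whose start-site peak carries a result below or is set against a changed distal peak. Capitals mark the GC box GGGCGG, the binding letters of Sp-family factors, on either strand and with overlaps counted.
Iqgap2, chr13:95891923-95892172, minus strand: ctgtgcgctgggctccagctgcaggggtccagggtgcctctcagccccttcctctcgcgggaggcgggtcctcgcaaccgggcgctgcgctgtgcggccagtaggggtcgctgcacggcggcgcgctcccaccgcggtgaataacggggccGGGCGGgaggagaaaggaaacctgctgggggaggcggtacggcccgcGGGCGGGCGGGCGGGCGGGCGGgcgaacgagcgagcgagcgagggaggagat
Cdc42ep3, chr17:79355092-79355341, minus strand: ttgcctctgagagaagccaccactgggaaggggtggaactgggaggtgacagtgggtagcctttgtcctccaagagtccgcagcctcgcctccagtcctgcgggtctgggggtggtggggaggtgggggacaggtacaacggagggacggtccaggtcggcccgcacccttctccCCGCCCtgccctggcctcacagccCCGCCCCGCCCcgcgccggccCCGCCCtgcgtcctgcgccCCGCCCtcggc
Baiap2, chr11:119942842-119943091, plus strand: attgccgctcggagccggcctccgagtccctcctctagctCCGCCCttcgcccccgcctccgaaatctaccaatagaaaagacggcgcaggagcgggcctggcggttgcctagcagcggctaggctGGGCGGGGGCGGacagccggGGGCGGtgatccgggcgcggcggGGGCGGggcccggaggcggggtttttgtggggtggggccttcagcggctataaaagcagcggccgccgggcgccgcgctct
Cdc42, chr4:137357760-137358009, minus strand: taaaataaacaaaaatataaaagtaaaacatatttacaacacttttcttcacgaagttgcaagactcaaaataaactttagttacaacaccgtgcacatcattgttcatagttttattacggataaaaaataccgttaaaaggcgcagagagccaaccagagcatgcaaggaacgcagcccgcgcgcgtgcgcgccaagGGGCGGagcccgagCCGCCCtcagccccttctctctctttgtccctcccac
The Iqgap2 stretch was 75.2% GC with 33 CpG sites and 6 GC boxes. Those of Baiap2 and Cdc42ep3 were 72.8% and 72.4% GC and held 5 GC boxes each. The Cdc42 stretch was 45.2% GC with 15 CpG sites and 2 GC boxes. Over all 32851 promoters of the table the median was 52.4% GC and 6 CpG sites, and 32.7% held a GC box. Other motifs searched on both strands and not found in these 4 windows were CCGGAAG for ETS factors (in 6.91% of all promoters), AGATAA for GATA (9.99%), TGTGGTT for RUNX (4.40%), TGANTCA for AP-1 (6.75%), TGACGTC for CREB (2.78%), GGAATG for TEAD (12.6%), the E-box CACGTG (6.02%) and the CArG box (1.47%). A peak covered all 250 bases for Baiap2 and Cdc42ep3 and 152 of them for Iqgap2, while the Cdc42 start-site peak lay just inside the gene and covered none.

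The 10 genes had 3 (Rac2) to 24 (Iqgap2) peaks, with 13 at Iqgap1, 7 each at Cdc42, Baiap2 and Wasf2, 6 at Cdc42ep3 and 4 each at Rac1, Pak1 and Pak2. Of the 79 peaks, 65.8% lay inside a gene span away from its ends, against 40.3% of all peaks, and 12.7% lay at a gene end, against 24.1%. Of the Iqgap2 peaks, 2 also lay at the end of F2rl2, a gene nested in its span. Averaged over all libraries, the start-site peak of Iqgap2 was more accessible than 88.8% of 13403 gene ends, that of Baiap2 than 86.1% and that of Iqgap1 than 86.1%. Next came Wasf2 at the 81.5th percentile, Rac1 at the 65.5th, Pak1 at the 64.8th, Pak2 at the 59.6th, Cdc42 at the 50.2nd, Cdc42ep3 at the 40.4th and Rac2 at the 29.3rd. The libraries of neighbours in this order overlap, as the plot of gene-end values by library shows. For Rac1, Rac2 and Pak2 the end with more counts stands in for the start, since no strand was at hand, and the Pak1 value sums peaks at a pair of annotated starts.

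**Figure D1:**
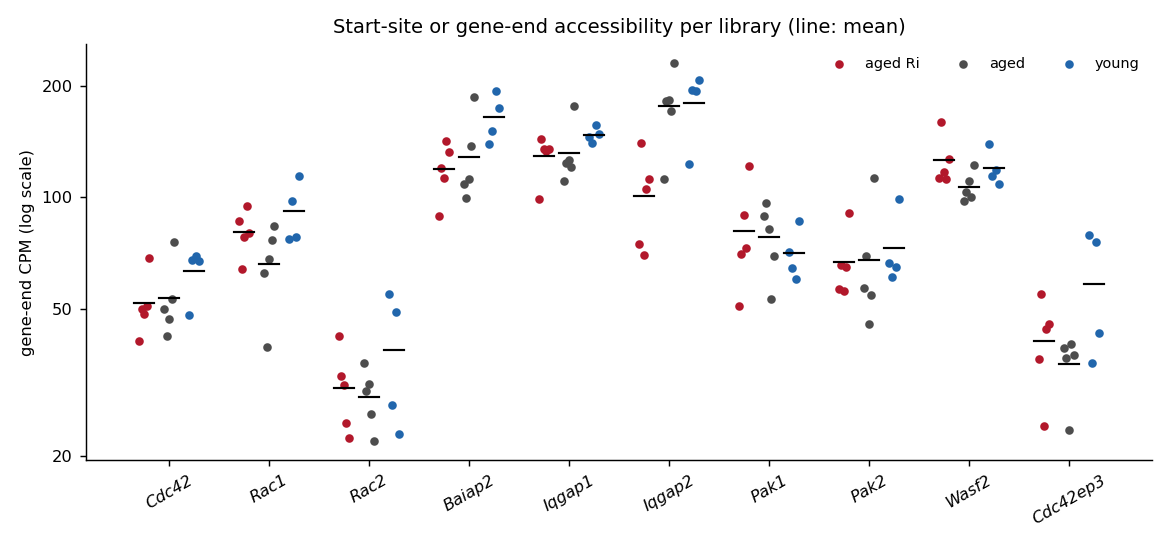
Gene-end accessibility (CPM scaled over gene-end counts, log axis) of the 10 genes in each library, with aged Ri, aged and young libraries from left to right and a line at each group mean. The Iqgap2 points of aged Ri average 101 CPM and lie mostly below those of aged (176 CPM) and young (180 CPM) cells, while the groups overlap at the other 9 genes.

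The 3 contrasts were tested with edgeR over all peaks that passed the low-count filter, which 76 of the 79 member peaks did. Between aged Ri and aged cells 0.446% of all 56235 peaks passed an adjusted p of 0.05, and so did 2 of the 76 member peaks, 1 at Baiap2 and 1 at Rac1, both higher in aged Ri, as were 0.375% of all peaks. Between aged and young cells 5.72% of all peaks passed, and so did 6 member peaks, 4 higher (2 at Cdc42, 1 at Baiap2, 1 at Iqgap2) and 2 lower in aged cells (Rac2, Cdc42ep3), against 4.45% and 1.26% of all peaks. Without young 1 and young 3, 0.487% of all peaks passed and 1 of the 6 member peaks did, the one inside Cdc42. Between aged Ri and young cells 11.5% of all peaks passed, and so did 16 member peaks, 11 higher and 5 lower in aged Ri, against 7.9% and 3.56% of all peaks. Without young 1 and young 3, 2.72% of all peaks passed and 4 of the 16 did, 2 at Baiap2 and 2 at Iqgap2. The last contrast shares its libraries with both others. Median log2 differences of the tested member peaks were 0.04, 0.11 and 0.18 in these 3 contrasts, against -0.02, -0.01 and -0.03 over all peaks. Member peaks lie more often inside gene spans and less often at gene ends, as given above. Aged and aged Ri against young, medians inside gene spans were 0.19 and 0.22 for members, against 0.10 and 0.07 for all peaks. At gene ends they were -0.38 and -0.35 for members, against -0.22 and -0.22 for all peaks.

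**Figure D2:**
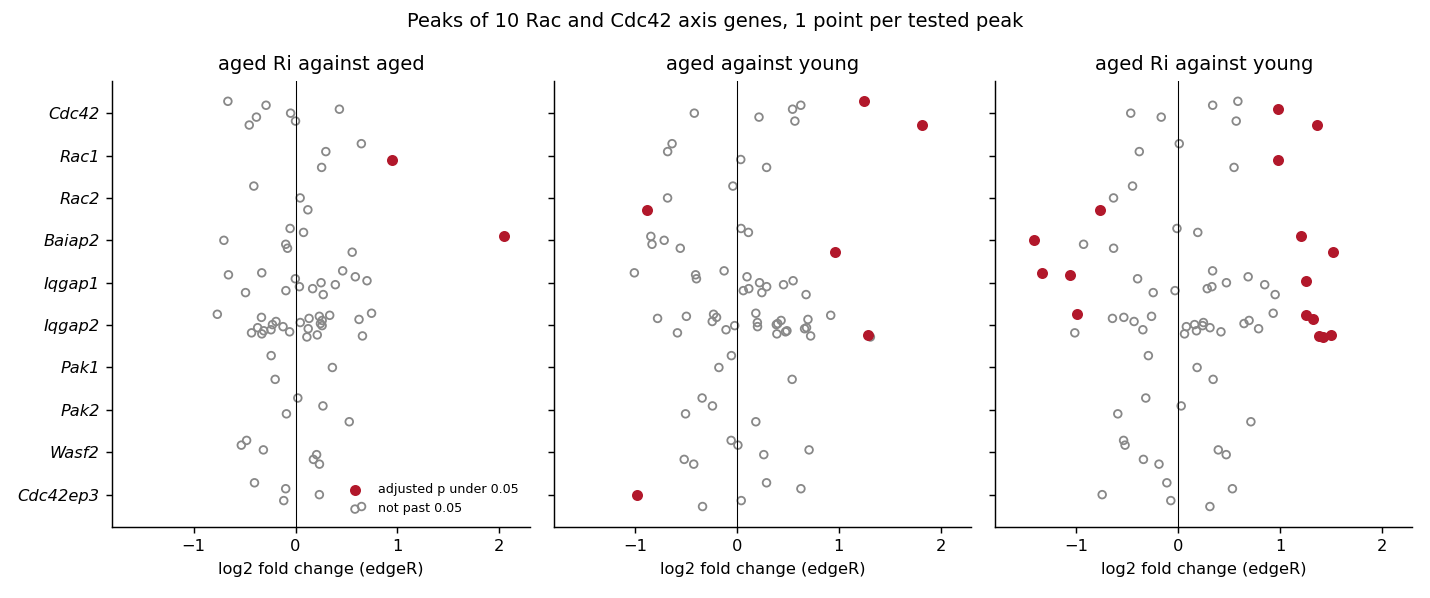
Log2 fold change of each tested peak, by gene, in the 3 contrasts (first-named over second-named group in each title), with filled red points for an edgeR adjusted p under 0.05. In aged Ri against aged the filled points are the Baiap2 peak at 2.05 and the Rac1 peak at 0.94.

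Baiap2 encodes IRSp53, an adaptor that binds active Rac and Cdc42, bends membranes through its I-BAR domain and links to WAVE. Its peak at chr11:119975687-119976386, inside the gene and 32.9 kb after the start, had 16.1, 19.6, 29.4, 15.5 and 7.28 CPM in aged Ri 1 to 5, against 8.02, 6.44, 4.51, 1.37 and 1.34 CPM in aged 1 to 5. The 4 young libraries had 6.22, 7.56, 11.4 and 4.84 CPM. The raw counts behind these were 31, 23, 91, 43 and 18 in aged Ri, against 10, 11, 12, 2 and 3 in aged cells. Of the aged Ri libraries only aged Ri 5 lay within the range of the aged ones, and within each number the aged Ri library was above the aged one. The mean was 17.6 ± 8.0 CPM in aged Ri and 4.34 ± 2.99 CPM in aged cells (SD, n = 5 each), a 4.14-fold difference in the model (log2 2.05 ± 0.33 SE, edgeR adjusted p = 0.0027). Batches 1, 2 and 3 gave log2 differences of 1.19, 2.62 and 1.81. The call held when each library was left out in turn, with adjusted p from 0.00206 to 0.0347.

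Aged against young, the same Baiap2 peak had a log2 difference of -0.85 ± 0.40 (adjusted p = 0.207), and aged Ri against young it was 2.31-fold higher in aged Ri (log2 1.2 ± 0.34, adjusted p = 0.0185). Against young the call was lost without aged Ri 3, young 1 or young 2, with adjusted p up to 0.121, and without young 1 and young 3 together (0.197). With the gene-end percentage of counts in the model it was also lost (log2 0.85, adjusted p = 0.470). For the other 6 Baiap2 peaks the log2 differences between aged Ri and aged ran from -0.70 to 0.56, and none passed in edgeR or in the same fit with the replicate number as a block, a number that the labels do not tie to an animal. A test of each peak against the rest of its own gene put this peak 1.82 log2 units above the others in aged Ri (adjusted p = 0.0039). In that test 0.0793% of 42886 peaks passed, and this was the 1 member peak among them. The call was lost without aged Ri 3, aged 3 or aged 4, with adjusted p up to 0.123.

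The Baiap2 peak 9.68 kb before the start, at chr11:119933064-119933763, was higher in aged than in young cells. It had 42.5, 35.7, 87.2, 62.3 and 44.5 CPM in aged 1 to 5, against 15.1, 45.4, 31.2 and 27.1 CPM in young 1 to 4, and only young 2 lay within the aged range. The model gave a 1.95-fold difference (log2 0.96 ± 0.23, edgeR adjusted p = 0.0106), with within-batch log2 differences of 1.31, 0.95 and 0.70. In aged Ri 1 to 5 it had 66.6, 69.0, 120.7, 75.5 and 61.0 CPM, above every young library and 2.87-fold higher in the model (log2 1.52 ± 0.23, adjusted p = 5.14e-05). Aged Ri against aged the log2 difference was 0.56 ± 0.20 (adjusted p = 0.254). The call against young was lost for aged cells without aged 3 (or young 1), with adjusted p up to 0.116, and without young 1 and young 3 together (0.421), while for aged Ri cells it held there (0.019). For aged cells it was also lost with no batch term (0.0943) and with the gene-end percentage in the model (0.2995). For aged Ri cells it held in both (0.0041 and 0.0060).

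The Baiap2 start-site peak itself had a mean of 119 ± 20.5 CPM in aged Ri, 129 ± 35.3 CPM in aged and 165 ± 24.4 CPM in young libraries on the gene-end scale. Its log2 differences were -0.10 for aged Ri against aged (adjusted p = 0.971), -0.29 for aged against young (0.270) and -0.40 for aged Ri against young (0.0823). A weak peak inside the gene, 17.8 kb after the start, at chr11:119960513-119961212, had 5.41 ± 2.11 CPM in aged Ri, against 13.2 ± 4.23 CPM in young libraries, and was 2.67-fold lower in aged Ri (log2 -1.42 ± 0.32, adjusted p = 0.0029). With the gene-end percentage in the model this call was lost (log2 -1.21, adjusted p = 0.205).

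**Figure D3:**
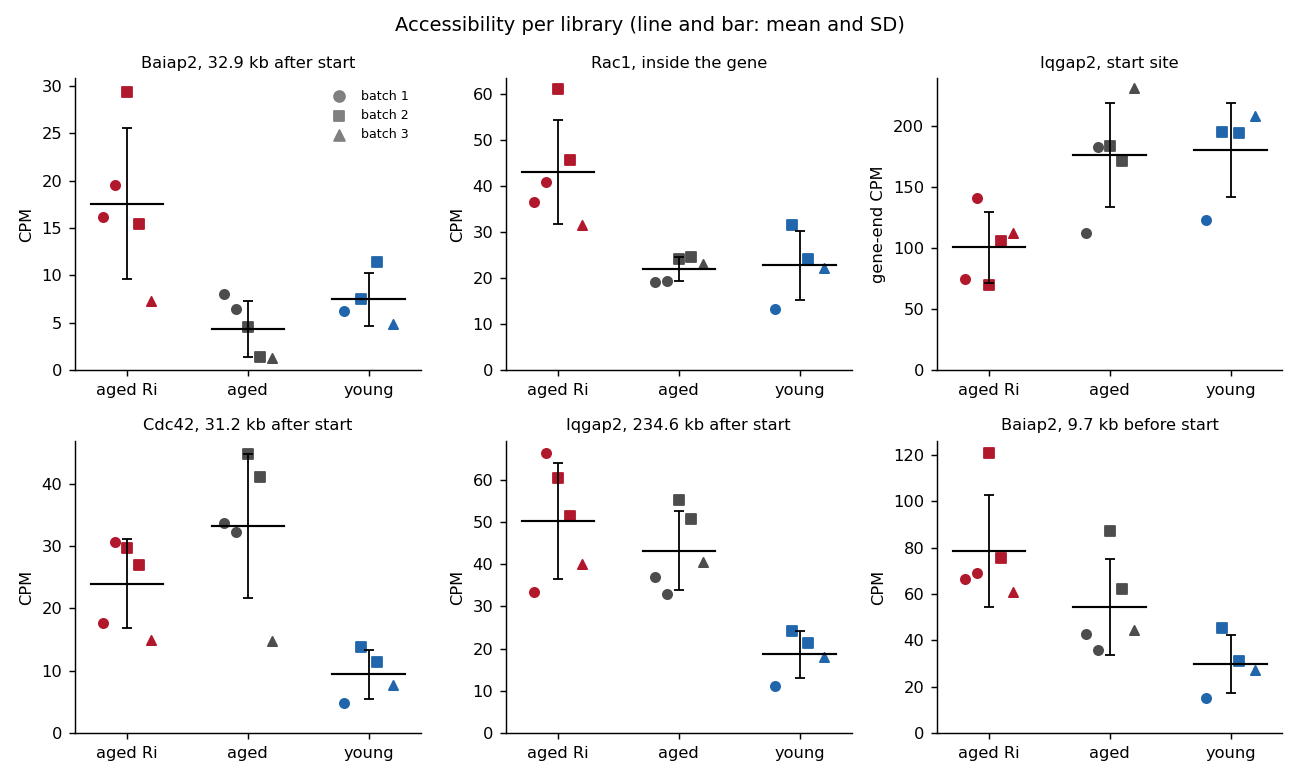
CPM per library of 5 peaks and of the Iqgap2 start site (on the gene-end scale), with aged Ri, aged and young from left to right, marker shape for the sequencing batch, and the mean and SD of each group. The Baiap2 peak inside the gene averages 17.6 CPM in aged Ri and 4.34 CPM in aged cells, and the Cdc42 peak averages 33.3 CPM in aged and 9.43 CPM in young cells.

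Of the 3 listed GTPases, Cdc42 had peaks called higher in aged than in young cells. Summed over its 7 peaks, it had 163, 138, 152, 130 and 114 CPM in aged 1 to 5, against 68.2, 100.5, 91.2 and 92.9 CPM in young 1 to 4. These ranges did not overlap, and the difference was 1.57-fold (log2 0.65 ± 0.14, edgeR adjusted p = 0.0077) where 5.60% of 16716 gene sums passed. It was lost without young 1 (adjusted p = 0.119) and without young 1 and young 3 (0.425). Aged Ri libraries had 129, 154, 148, 119 and 112 CPM, all above the young ones (log2 0.57 ± 0.14, adjusted p = 0.0095, and 0.335 without young 1 and young 3), and -0.08 ± 0.13 from the aged ones in log2 (adjusted p = 0.952). With the gene-end percentage in the model the sum passed against young for neither aged nor aged Ri cells.

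Of these peaks, the one with the largest age difference lay at chr4:137326241-137326940, 31.2 kb after the Cdc42 start and inside the gene. It had 33.7, 32.2, 44.7, 41.1 and 14.7 CPM in aged 1 to 5, against 4.88, 13.7, 11.4 and 7.74 CPM in young 1 to 4. Every aged library was above every young one, with aged 5 the nearest. The difference was 3.52-fold (log2 1.82 ± 0.28, edgeR adjusted p = 9.21e-05), in log2 2.52, 1.70 and 0.84 within batches 1 to 3. It passed with each library left out in turn (adjusted p at most 0.00351) and without young 1 and young 3 (0.033). Aged Ri 1 to 5 had 17.7, 30.6, 29.7, 27.0 and 15.0 CPM, also all above the young libraries (log2 1.36 ± 0.28, adjusted p = 0.0013, and 0.111 without young 1 and young 3), and overlapping the aged ones (log2 -0.45 ± 0.22, adjusted p = 0.473).

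A second Cdc42 peak, 18.8 kb before the start at chr4:137376231-137376930, had 28.1, 12.3, 14.3, 11.6 and 12.5 CPM in aged cells, against 5.33, 7.56, 5.68 and 6.29 CPM in young cells, again with no overlap. Its log2 difference of 1.25 ± 0.34 (edgeR adjusted p = 0.0221) lost the call without aged 1, aged 3 or young 1, with adjusted p up to 0.191, and without young 1 and young 3 (0.404). The call was also lost with the gene-end percentage in the model (log2 0.82, adjusted p = 0.629). In aged Ri the peak averaged 9.56 ± 3.40 CPM, against 15.8 ± 6.96 CPM in aged cells (log2 -0.66 ± 0.28, adjusted p = 0.376). The peak 10.1 kb before the start averaged 52.5 ± 15.8 CPM in aged Ri, 38.1 ± 4.65 CPM in aged and 25.5 ± 4.55 CPM in young cells, and passed for aged Ri against young (log2 0.98 ± 0.23, adjusted p = 0.0057, and 0.222 without young 1 and young 3).

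The Cdc42 start site on the gene-end scale had 51.7 ± 10.1 CPM in aged Ri, 53.6 ± 13.0 CPM in aged and 63.1 ± 10.1 CPM in young libraries. In the within-gene test, where 2.84% of peaks passed for aged against young, it lay 0.94 log2 units below the rest of the gene in aged cells (value -0.94, adjusted p = 0.0105), and the peak 31.2 kb after the start lay 1.29 above (adjusted p = 0.0029). Of the member peaks 4 passed this test, these and the distal peaks of Baiap2 and Iqgap2 (adjusted p = 0.0038 and 0.0035), and none of the 4 passed without young 1 and young 3. Gene ends also took a smaller part of the counts in aged than in young libraries, as given above, and none of the 4 passed with that percentage in the model. There the within-gene log2 differences were 1.22 for the Cdc42 peak 31.2 kb after the start (adjusted p = 0.291), 1.2 for the Iqgap2 peak (0.0555), 0.68 for the Baiap2 peak (0.735) and -0.57 for the Cdc42 start site (1.0).

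**Figure D4:**
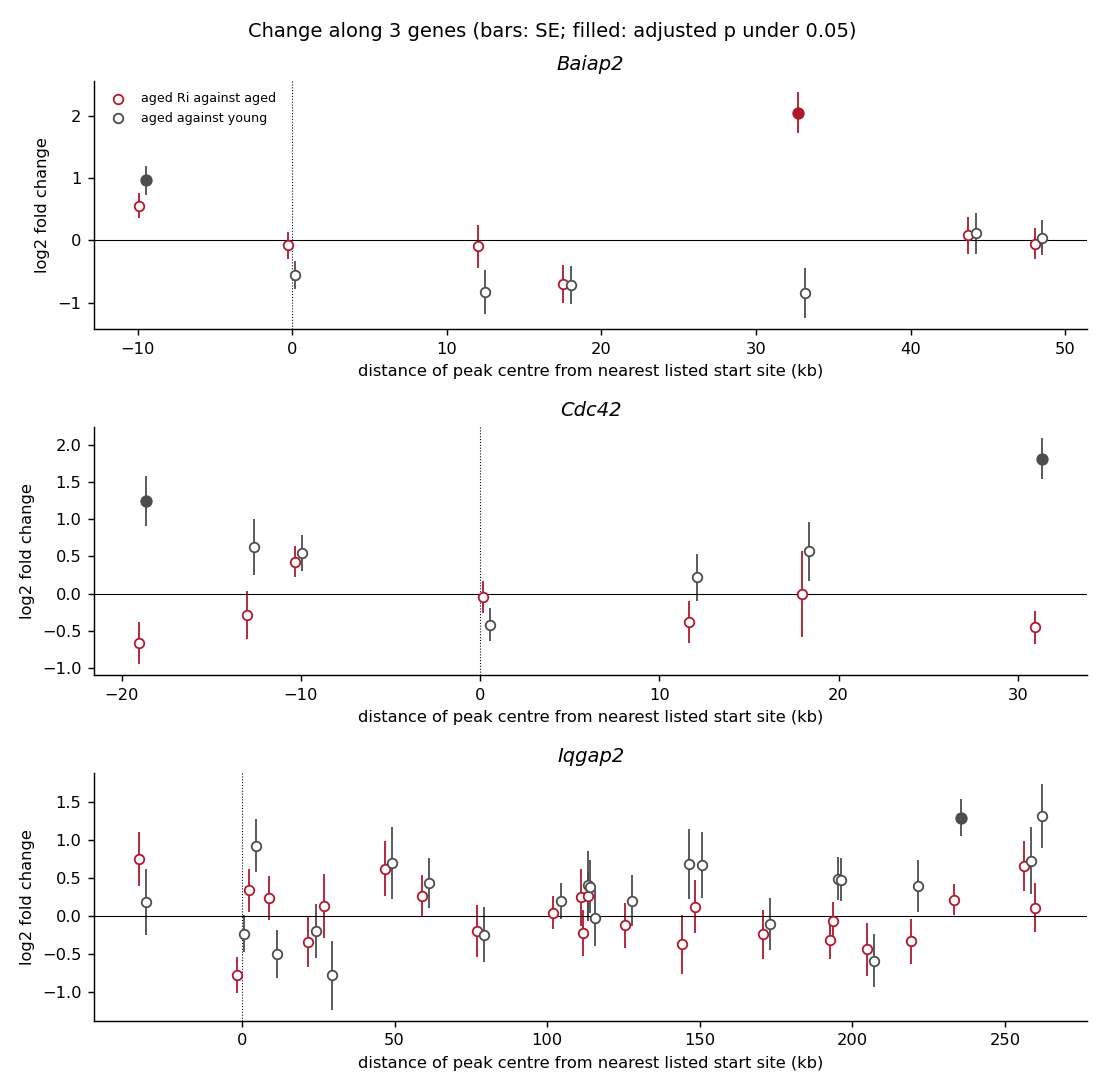
Log2 fold change (points, with SE bars) of the tested peaks along Baiap2, Cdc42 and Iqgap2, against the distance in kb of the peak centre from the nearest listed start, positive in the direction of the gene. Red is aged Ri against aged, grey is aged against young, and filled points have an edgeR adjusted p under 0.05. At Baiap2 the red point at 2.05 stands alone, and at Cdc42 the filled grey points (1.82 and 1.25) flank a start site at -0.42. Aged against young, all peaks at gene ends had a median of -0.22 on this scale. On the gene-end scale the Cdc42 start site was at -0.16 (adjusted p = 0.651).

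Rac1, the broadly expressed Rac, had a called peak between aged Ri and aged cells. Its peak at chr5:143518001-143518700, inside the gene, had 36.5, 40.9, 61.0, 45.7 and 31.5 CPM in aged Ri 1 to 5, against 19.2, 19.3, 24.1, 24.6 and 23.2 CPM in aged 1 to 5. These 2 groups did not overlap. The young libraries had 13.3, 31.6, 24.1 and 22.2 CPM, with young 1 below the aged range. Young 2 lay above the aged range and reached that of aged Ri. The difference was 1.92-fold (log2 0.94 ± 0.21, edgeR adjusted p = 0.0299), with 0.96, 1.09 and 0.43 in batches 1 to 3. It was lost without any one of aged Ri 2, aged Ri 3 and aged 1 to 4 (adjusted p up to 0.214). With the replicate number as a block the adjusted p was 0.000249. Aged Ri against young the peak was 1.97-fold higher in aged Ri (log2 0.98 ± 0.23, adjusted p = 0.0040, and 0.174 without young 1 and young 3). With the gene-end percentage in the model that call was lost (adjusted p = 0.0885).

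All 4 Rac1 peaks had a positive log2 difference between aged Ri and aged cells, from 0.26 to 0.94, and the other 3 did not pass. Their sum was 118, 90.4, 130, 113 and 97.4 CPM in aged Ri, against 75.7, 64.1, 76.6, 83.4 and 80.4 CPM in aged libraries, again without overlap. Its log2 difference of 0.53 ± 0.13 had an edgeR adjusted p of 0.0902, so that no member gene sum passed where 0.126% of 16716 did, with 2 of 10 at an unadjusted p under 0.05 and 1, Rac1, past the threshold in DESeq2. The share of all gene sums at that unadjusted p is not given. With the replicate block the Rac1 sum passed (adjusted p = 0.0107), where 1.65% of gene sums did. The Rac1 gene end was 80.6 ± 11.4 CPM in aged Ri, 66.0 ± 16.9 CPM in aged and 91.8 ± 17.5 CPM in young libraries, with no call in any contrast.

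Rac2, the Rac of blood cells, was lower in aged than in young cells at the peak chr15:78563857-78564556 inside the gene. It had 13.6, 15.2, 12.8, 23.9 and 11.1 CPM in aged 1 to 5, against 39.1, 22.0, 36.9 and 15.5 CPM in young 1 to 4 (log2 -0.88 ± 0.27, edgeR adjusted p = 0.0407). The groups overlapped, and young 1 and young 3 were the high ones. These are also the libraries with the highest B and T cell marker sums. Without them the log2 difference was -0.33 (adjusted p = 0.773), and with the gene-end percentage in the model it was -0.38 (0.844). In aged Ri cells the peak had 12.0, 19.6, 14.5, 19.1 and 16.6 CPM (log2 -0.76 ± 0.26 against young, adjusted p = 0.0493, and -0.21 with adjusted p = 0.7965 without young 1 and young 3). The sum of the 3 Rac2 peaks was likewise lower in aged Ri than in young libraries (log2 -0.48 ± 0.15, adjusted p = 0.0391), where 11.8% of gene sums passed, and it did not pass without young 1 and young 3 (0.561). With the gene-end percentage in the model the sum did not pass either. Aged Ri against aged, the 3 peaks lay between -0.41 and 0.12.

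Iqgap1 and Iqgap2 are scaffolds that bind active Cdc42 and Rac and tie them to actin and to cell adhesion. The Iqgap2 start site was the one gene end of the 10 that passed between aged Ri and aged cells, where 0.149% of 13403 gene ends did. It had 74.8, 141, 69.7, 105 and 112 CPM in aged Ri 1 to 5, against 112, 182, 183, 171 and 231 CPM in aged 1 to 5 and 123, 195, 194 and 208 CPM in young 1 to 4. Within each number the aged Ri library was lower than the aged one, although aged 1 lay within the aged Ri range. The fold difference was 1.79, lower in aged Ri (log2 -0.84 ± 0.17, edgeR adjusted p = 0.0256), with log2 differences of -0.47, -1.03 and -1.02 in batches 1 to 3. It did not pass without any one of aged Ri 1, 3 and 5 and aged 2 to 5 (adjusted p up to 0.148), and with the replicate block, where 0.872% of gene ends passed, its adjusted p was 2.27e-06.

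Scaled over all peaks, the same Iqgap2 peak, chr13:95892021-95892720, had a log2 difference of -0.77 ± 0.24 (edgeR adjusted p = 0.155), and with the replicate block it passed (adjusted p = 0.0045). With that block 4.42% of all peaks passed between aged Ri and aged cells, and 3 member peaks did, those of Baiap2, Rac1 and Iqgap2. In the blocked within-gene test it also lay below the rest of Iqgap2 (log2 -0.72, adjusted p = 0.018), where 1.25% of peaks passed. Aged Ri against young the gene end was 1.74-fold lower in aged Ri (log2 -0.80 ± 0.18, adjusted p = 0.0065), the 1 of 10 gene ends to pass where 5.28% did. It also passed without young 1 and young 3 (0.0177), but not with the gene-end percentage in the model (0.328). Aged against young the log2 difference was 0.04 ± 0.17 (adjusted p = 0.930). No member gene end passed in that contrast, where 2.01% did, with 3 of 10 at an unadjusted p under 0.05 and 0 in DESeq2. Of all single peaks at gene ends, 21.25% had an unadjusted p under 0.05 there.

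Deep in Iqgap2, 234.6 kb after the start, the peak chr13:95657013-95657712 was higher with age. It had 36.9, 32.8, 55.3, 50.6 and 40.5 CPM in aged 1 to 5, against 11.1, 24.1, 21.3 and 17.9 CPM in young 1 to 4, with no overlap. The difference was 2.44-fold (log2 1.29 ± 0.24, edgeR adjusted p = 0.0011), and 1.56, 1.19 and 1.13 in log2 within batches 1 to 3. It passed with each library left out in turn (adjusted p at most 0.0236) and not without young 1 and young 3 together (log2 1.07, adjusted p = 0.109). Aged Ri libraries had 33.3, 66.4, 60.4, 51.4 and 40.0 CPM, all above young (log2 1.5 ± 0.24, adjusted p = 9.71e-05) and overlapping aged (log2 0.21 ± 0.20, adjusted p = 0.818).

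Of the 24 Iqgap2 peaks, 5 were higher and 1, the start site, was lower in aged Ri than in young cells, where 7.9% and 3.56% of all peaks were. Besides the peak above, the higher ones were weak peaks with group means between 7.18 and 14.8 CPM in aged Ri, against 2.96 to 6.36 CPM in young cells. Their log2 differences lay between 1.26 and 1.42, and the one 3.54 kb after the start passed without young 1 and young 3 (adjusted p = 0.045). With the gene-end percentage in the model none of these weak peaks passed (adjusted p from 0.144 to 0.79, and 0.325 for the one 3.54 kb after the start). Iqgap1 had no called peak between aged Ri and aged or between aged and young cells (2 and 1 of 13 at an unadjusted p under 0.05, 0 in DESeq2 in both). Over all peaks 10.2% and 22.3% had an unadjusted p under 0.05 in these contrasts. In both contrasts DESeq2 left some member peaks without an adjusted p. Its start site averaged 129 ± 17.6 CPM in aged Ri, 132 ± 26 CPM in aged and 148 ± 6.64 CPM in young libraries. Aged Ri against young, 3 of the 13 Iqgap1 peaks passed, where 11.5% of all peaks did. One inside the gene, 14 kb after the start, was higher in aged Ri (9.86 ± 2.52 against 3.53 ± 2.55 CPM in young cells, log2 1.25 ± 0.38, adjusted p = 0.0269). A pair of adjacent peaks 29.1 and 29.8 kb before the start was lower in aged Ri (log2 -1.06 and -1.34, adjusted p = 0.0404 and 0.0243). None of these 3 passed without young 1 and young 3, or with the gene-end percentage in the model.

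Cdc42ep3 (Borg2) binds active Cdc42 and organises septins. Its start-site peak chr17:79355045-79355744 had 17.6, 15.8, 11.3, 21.2 and 23.6 CPM in aged 1 to 5, against 45.3, 20.6, 48.3 and 28.1 CPM in young 1 to 4 (log2 -0.98 ± 0.29, edgeR adjusted p = 0.0435). As at Rac2, young 1 and young 3 were the high ones. Without them the log2 difference was -0.36 (adjusted p = 0.754), and in a model with the gene-end percentage it was -0.09 (0.971). On the gene-end scale it did not pass with all libraries either (log2 -0.72 ± 0.23, adjusted p = 0.0852). Aged Ri cells had 13.5, 29.8, 11.3, 25.9 and 25.5 CPM, overlapping the aged libraries (log2 0.23 ± 0.28, adjusted p = 0.875). What the B and T cell marker sums contribute to the Rac2 and Cdc42ep3 values was not tested.

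No tested peak or gene end of Pak1, Pak2 or Wasf2 passed in any contrast, in edgeR or in DESeq2. DESeq2 left some member peaks without an adjusted p, and these count as not passing. Pak1 and Pak2 are the kinases that active Rac and Cdc42 switch on, and Wasf2 (WAVE2) relays Rac to Arp2/3. An unadjusted p under 0.05 was found at 1 Pak2 peak for aged Ri against young, and for aged against young at the Pak1 peak 23.1 kb before the start (27.4 ± 9.75 CPM in aged and 19.4 ± 6.19 CPM in young cells, log2 0.54 ± 0.24, adjusted p = 0.176). It was also found at a Wasf2 peak 39.3 kb after the start (27.8 ± 8.23 CPM in aged and 16.7 ± 2.75 CPM in young cells, log2 0.71 ± 0.24, adjusted p = 0.0715). Over all peaks 27.65% (aged Ri against young) and 22.3% (aged against young) had an unadjusted p under 0.05. The Wasf2 start site averaged 126 ± 19.7 CPM in aged Ri, 107 ± 9.90 CPM in aged and 120 ± 13.3 CPM in young libraries. Those of Pak1 summed to 81.1 ± 26.6 CPM in aged Ri, 78.1 ± 17.1 CPM in aged and 70.6 ± 11.5 CPM in young libraries. The Pak2 gene end had 66.7 ± 14.2 CPM in aged Ri, 67.8 ± 26.4 CPM in aged and 72.8 ± 17.7 CPM in young libraries.

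Outside the 10 genes, the 5 peaks most like the Baiap2 peak inside the gene were found by Pearson correlation of batch-centred log2 CPM over all 14 libraries, among the 25903 peaks that averaged 20 counts or more. The closest (r = 0.939) lay on chromosome 15 with no gene within 50 kb. The others lay in Rara (0.907), a retinoic acid receptor, Rptor (0.898), an mTORC1 subunit, Tfap4 (0.896), a transcription factor, and Flnc (0.895), an actin cross-linker. Among them the Rptor peak, chr11:119817354-119818053, is the near neighbour, 158333 bp from the Baiap2 peak, with a log2 difference of 2.04 between aged Ri and aged cells (edgeR adjusted p = 0.0893). In the same contrast the log2 differences (edgeR adjusted p) were 1.26 (0.0455) for the chromosome 15 peak and 1.37 (0.0241) for Flnc. For Rara and Tfap4 they were 0.58 (0.325) and 0.65 (0.275). These peaks share libraries and depth with the Baiap2 peak, and the ranking is a description. The Baiap2 peak was picked for its small p in this contrast, so differences in peaks like it are partly built in.

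Beyond the 10 genes, 114 other genes of the pathway were listed, of which 100 had a tested gene end. None passed between aged Ri and aged cells in edgeR or DESeq2, where 0.149% of all gene ends passed in edgeR. An unadjusted p under 0.05 was found for 5 of the 100, and for 4.95% of all single peaks at gene ends. The 4 with the smallest p were Srgap1, a GTPase-activating protein (31.5 ± 9.90 CPM in aged Ri and 20.4 ± 4.76 CPM in aged cells, log2 0.70 ± 0.26, edgeR adjusted p = 0.495), Baiap2l1, a relative of Baiap2 (log2 0.38, 0.516), Abi3, a WAVE complex adaptor (0.37, 0.597), and Pak6 (0.58, 0.665). Aged against young, Rhoj, a GTPase close to Cdc42, was 2.39-fold higher (45.3 ± 13.9 CPM in aged and 19.2 ± 2.68 CPM in young cells, log2 1.26 ± 0.25, adjusted p = 0.0029). Arhgdib, the inhibitor that holds such GTPases in the cytosol of blood cells, was 1.76-fold higher (197.0 ± 51.6 CPM in aged and 110.4 ± 21.1 CPM in young cells, log2 0.82 ± 0.16, adjusted p = 0.0041). Prex1, a Rac exchange factor, was 1.54-fold lower (97.0 ± 25.7 CPM in aged and 152.6 ± 31.8 CPM in young cells, log2 -0.63 ± 0.14, adjusted p = 0.0096). Thus 2 gene ends were higher and 1 lower, a share near the 2.01% of all gene ends, and the median of the 100 was -0.03 in log2, against -0.01 for all gene ends. Values without young 1 and young 3 are not given for these genes.

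Aged Ri against young, with all young libraries kept, 5 of the 100 gene ends were higher and 2 lower in aged Ri. That share was near the 5.28% of all gene ends. Rhoj (log2 1.46), Arhgdib (0.93) and Prex1 (-0.62) passed again, in libraries partly shared with the contrast above. Added to them were Nckap1, a WAVE complex subunit (45.0 ± 12.0 CPM in aged Ri and 18.5 ± 7.22 CPM in young cells, log2 1.45 ± 0.29, edgeR adjusted p = 0.0021), Prkcz, the polarity kinase (log2 1.01 ± 0.22, 0.0053), Baiap2l1 (0.54 ± 0.15, 0.0295) and, lower, the exchange factor Vav2 (-0.58 ± 0.14, 0.0104). None of the 9 Arp2/3 complex genes passed in any contrast, with 0, 3 and 2 at an unadjusted p under 0.05 for aged Ri against aged, aged against young and aged Ri against young. Of all single peaks at gene ends, 4.95%, 21.25% and 24.2% had such a p in these contrasts. Of the 734 single peaks of the pathway genes, 4 (0.545%) passed between aged Ri and aged cells, close to the 0.446% of all peaks.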

How the data were processed

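ATAC-seq read counts per consensus peak were taken as deposited by the authors, raw and whole, for 14 libraries in 1 table with 1 peak list (mm10). Tools named there, per the submitters' processing notes and with no stated role, were featureCounts, SAMtools (1.14) and R (4.2.0). The aligner, peak caller, duplicate removal and any shift of reads for Tn5 are not given in the sources used here, and duplicates or an unshifted cut would alter counts at peak edges. Peaks were assigned to genes by RefSeq spans (GRCm38, the assembly of mm10) of 21887 protein-coding genes, within 50 kb. Counts were tested with edgeR 4.0.16 in R 4.3.3 (quasi-likelihood, robust, TMM, filterByExpr by group) on all peaks, with group and sequencing batch as terms and Benjamini-Hochberg adjustment at 0.05. The same fit was run on gene ends (counts within 1 kb of a start, or of the end with more counts where no strand was at hand) and on the sum of each gene's peaks. Single peaks were set against the rest of their gene with diffSpliceDGE. CPM values are scaled by TMM, over gene-end counts alone for gene ends, which makes them larger there. Every adjusted p is from edgeR over all features unless DESeq2 (1.42.0) is named. DESeq2 gave no adjusted p for 30 (aged Ri against aged), 17 (aged against young) and 13 (aged Ri against young) of the 76 tested member peaks. Those peaks count as not passing in DESeq2. Errors are SD for CPM and SE for log2 differences.

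Alternatives were DESeq2 and its size factors, no low-count filter, no batch term, the gene-end percentage of counts as a term, a trend offset, a replicate block, each library left out, a 2 kb window and peaks within 1 kb only. The omission of young 1 and young 3 was added after seeing the data. Same-numbered aged Ri and aged libraries deviated together over 25903 peaks (correlations of 0.365, 0.137, 0.645, 0.276 and 0.544 for numbers 1 to 5), each above 0.1, and the replicate block was therefore run and is given beside these results. In 4 of 5 numbers the same-numbered library was the best match. Such libraries also share a sequencing batch. With batch removed the correlations were -0.03, -0.12, 0.35 and 0.24 for numbers 1 to 4, and number 3 alone was the best match. Batch 3 holds 1 aged Ri and 1 aged library, both number 5, so removal forces their correlation to -1.0. In the other batches removal also pushes the correlations down, so these values cannot decide whether the numbers mark pairs. The labels do not say that a number marks the same animals, so blocked values rest on the data. For both contrasts with young they were not (-0.278 to 0.0733). The genes and pathway lists were chosen with earlier results of these data known. Named were every called peak, each gene's most accessible peak, its gene end and its sum, and the smallest p values per gene or list. The fits were tested on simulated data. Exons, introns and peak sequences were not used here, and a marker gene is not reported here. Scripts used Python 3.11.15, numpy 2.4.6, pandas 2.3.3, SciPy 1.17.1 and matplotlib 3.10.9.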

Additional observations from a re-analysis of the deposited data

Results flagged for a closer look

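Single libraries stood far from the rest of their group (gap to the nearest library over the group's range, above Dixon's 95% value) in 19 of 153 groups examined. Dixon's value is set to be passed in about 1 in 20 independent groups of normal values. Gene ends and sums here reuse the same peaks and libraries, so the 19 cannot be set against that rate. Among the peaks named above, aged Ri 3 had 120.7 CPM at the Baiap2 peak before the start (others 61.05 to 75.52), and aged 1 had 28.07 CPM at the Cdc42 peak 18.8 kb before the start (others 11.63 to 14.29). Young 1 had 15.99 CPM at the Iqgap1 peak 29.8 kb before the start (others 5.679 to 6.288). In Iqgap2, aged Ri 2 had 9.365 CPM at the peak 257.3 kb after the start (others 6.113 to 6.873) and aged Ri 3 had 24.53 CPM 3.54 kb after it (others 10.11 to 14.02).

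Aged 5 was high at start or gene-end peaks of 3 genes, with 111.3 CPM at Iqgap1 (others 49.73 to 63.65), 70.8 CPM at Pak2 (21.81 to 29.88) and 77.04 CPM at Wasf2 (44.11 to 53.01). On the gene-end scale it had 176.9 CPM at Iqgap1 (110.5 to 126.1). Also on that scale, aged Ri 1 had 98.72 CPM at Iqgap1 (133.6 to 143.8), aged Ri 5 had 90.76 CPM at Pak2 (55.92 to 65.63) and aged 3 had 23.5 CPM at Cdc42ep3 (36.73 to 40.25). Young 1 was low at the gene ends of Cdc42, with 47.97 CPM (67.29 to 69.24), and of Iqgap2, with 123.0 CPM (194.3 to 207.8), and young 4 was high at Pak2 with 99.08 CPM (60.74 to 66.53). Among gene sums, aged Ri 1 had 47.5 CPM at Rac2 (54.04 to 56.56). Aged Ri 3 had 253.1 CPM at Baiap2 (167.8 to 187.8) and 244.5 CPM at Iqgap1 (199.3 to 211.6), and young 4 had 70.1 CPM at Pak2 (51.51 to 54.07). What sets these libraries apart was not tested.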

How the results depend on the processing

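Counts of member calls under other settings follow, and what moves them was not tested. Shares over all features are given above for the replicate block (aged Ri against aged) and for single peaks without young 1 and young 3. For the other settings no such share is given, so a moved count cannot be told apart from a change over all features. Without a batch term, 1 peak (aged Ri against aged), 3 peaks (aged against young) and 0 gene ends (aged Ri against aged) passed. With the gene-end percentage as a term, 2 peaks (1 each at Cdc42 and Iqgap2), 0 gene sums and 0 within-gene calls remained for aged against young. For aged Ri against young 4 peaks (2 at Cdc42, 1 each at Baiap2 and Iqgap2) and 0 gene ends remained. For aged Ri against aged 1 gene sum and 2 within-gene calls were found with that term. The replicate block gave 1 gene sum and 2 within-gene calls for aged Ri against aged, and for aged against young, where the numbers do not pair the libraries, 1 gene end, Baiap2. DESeq2 gave 1 gene sum for aged Ri against aged. Without young 1 and young 3, 1 peak, 0 sums and 0 within-gene calls passed for aged against young, and 4 peaks for aged Ri against young. With 1 library left out, peaks called ranged 1 to 2, 2 to 8 and 6 to 18 in the 3 contrasts, gene ends 0 to 1, 0 to 1 and 1 to 2, gene sums 0 to 1 and 0 to 1, and within-gene calls 0 to 2 and 0 to 5. Counts moved by over 1.5 times for peaks without aged Ri 3 or aged 1 to 4 (aged Ri against aged), aged 1, aged 3 or young 1 (aged against young), and aged Ri 3 or young 1 (aged Ri against young). For gene ends they did so without aged Ri 1, 3 or 5 or aged 2 to 5, without young 4, and without aged Ri 2 or 4. For sums this held without aged Ri 5 and without young 1, and within genes without aged Ri 2 or 3 or aged 3 or 4, and without young 1. Some gene ends with no call changed sign in log2. For aged Ri against aged, Pak2 had -0.040 with no batch term and -0.0012 with the block. For aged against young the gene-end percentage gave Baiap2 0.053, Iqgap1 0.086, Pak1 -0.084 and Pak2 0.12, and Iqgap2 had -0.0041 with no batch term, -0.15 with the block and -0.081 without young 1 and young 3. For aged Ri against young the percentage gave Iqgap1 0.057, Pak2 0.14 and Cdc42ep3 0.095, the block gave Pak1 -0.040, and omission of young 1 and young 3 gave Rac2 0.024 and Cdc42ep3 0.017. With 1 library left out, signs turned for aged Ri against aged at Cdc42 (-0.11 to 0.030), Rac2 (-0.027 to 0.12), Baiap2 (-0.18 to 0.033), Iqgap1 (-0.10 to 0.092), Pak1 (-0.091 to 0.23) and Pak2 (-0.084 to 0.13), for aged against young at Iqgap2 (-0.11 to 0.11) and for aged Ri against young at Wasf2 (-0.045 to 0.13). Depth limits weak peaks, and 3 member peaks, averaging 7.43 to 8.29 counts, were not tested.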

Other observations

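Among the 734 peaks of the 114 other pathway genes, the 4 called between aged Ri and aged cells lay inside 4 genes. Those of Bcr, a GTPase-activating protein for Rac (log2 1.42 ± 0.32, edgeR adjusted p = 0.0342), Fgd3, a Cdc42 exchange factor (0.91 ± 0.21, 0.0425), and Swap70, a Rac exchange factor (1.21 ± 0.29, 0.0499), were higher in aged Ri. That of Pard3, a polarity scaffold, was lower (-1.39 ± 0.33, 0.0425). Aged against young, 43 of the 734 peaks (5.86%) passed, 27 higher and 16 lower in aged cells, and the smallest p values were at Kalrn, a Rac exchange factor (log2 1.87), Wipf1, a partner of WASP (1.31), and Mtss1, an I-BAR protein (-2.0). For aged Ri against young 90 passed (12.3%), 61 higher and 29 lower in aged Ri. These shares lie near those of all peaks.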
